A study of Mus musculus with 2 samples.

Results

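The genes described here make, recycle, consume and break down glutathione, or supply the cysteine from which it is built. They were 44 of the 21878 genes listed in the deposited tables, chosen by name from the cystine transporter, the enzymes of glutathione synthesis and breakdown, the methionine cycle and transsulfuration, the glutathione S-transferases and 2 exporters of glutathione conjugates. All 44 had a row in both tables, and 38 were measured, which here means a mean of at least 1 FPKM over both libraries. FPKM is a read number scaled to gene length in kilobases and to the size of the library.

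Primary chondrocytes of C57BL/6 mice were grown in culture and given lentivirus. Cells labelled shGpx4 received a hairpin against Gpx4, the glutathione peroxidase that reduces lipid hydroperoxides, and cells labelled shNC received a control hairpin. RNA of each was sequenced once, so there is 1 library per group, no replicate and no test, and every difference describes these 2 libraries only. No second hairpin against Gpx4 is among the samples, and the labels do not say from how many animals the cells came. The library totals worked out from the FPKM values were 21313211 reads for shGpx4 and 19729142 reads for shNC.

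Glutathione is a tripeptide of glutamate, cysteine and glycine. Cystine enters the cell through the exchanger system xc-, is reduced to cysteine, joined to glutamate by glutamate-cysteine ligase and completed by glutathione synthetase. Glutathione is the electron donor of GPX4, and loss of cystine import or of glutathione is a classical trigger of ferroptosis, the cell death that follows lipid peroxidation. Glutathione S-transferases join glutathione to electrophiles, among them the reactive aldehydes that lipid peroxidation leaves behind, and ABC transporters carry the conjugates out of the cell.

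In bulk RNA, fewer cells of a type and less RNA per cell cannot be told apart. Gpx4 was at 96.2 FPKM in shGpx4 and 161 FPKM in shNC, so the shGpx4 library held 59.9% of the shNC level. Of 14 chondrocyte markers with a row, 6 were measured, with a summed level of 1818 FPKM in shGpx4 and 1876 FPKM in shNC, most of it from Comp. Within that list Col2a1 was at 58.4 FPKM in shGpx4 and 8.96 FPKM in shNC. Lect1 was at 270.0 FPKM in shGpx4 and 124 FPKM in shNC. Both were at least 1.5-fold higher in shGpx4. Sox9, Comp and Col11a1 were lower in shGpx4 by less than 1.5-fold, at log2 ratios of -0.25, -0.23 and -0.17. Hapln1 was higher by less than 1.5-fold, at a log2 ratio of 0.15. Acan, Matn1 and Epyc were at or near 0 in both. All 10 fibroblast markers were measured, with sums of 7272 FPKM in shGpx4 and 5541 FPKM in shNC, and they went both ways. Dcn and Thy1 were at least 1.5-fold higher in shGpx4, at log2 ratios of 0.84 and 0.59, and Postn was lower, at 327 FPKM in shGpx4 and 948 FPKM in shNC. Of 9 osteoblast markers 5 were measured, of which Ibsp, Dmp1 and Phex were at least 1.5-fold lower in shGpx4, and the list summed to 8908 FPKM in shGpx4 and 8743 FPKM in shNC, nearly all of it Spp1. The 10 macrophage and leukocyte markers summed to 23.7 FPKM in shGpx4 and 22.1 FPKM in shNC, with Ptprc at 0 in both. Among them Cd14 was higher, at 17.1 FPKM in shGpx4 and 9.19 FPKM in shNC, and Lyz2 lower, at 1.86 FPKM in shGpx4 and 7.67 FPKM in shNC. The 8 endothelial markers summed to 6.73 FPKM in shGpx4 and 3.34 FPKM in shNC, nearly all of it Eng, with Cdh5 and Tie1 at 0 in both. The part that a different mix of cells has in the values below was not tested.

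Most genes of glutathione metabolism lay close together in the 2 libraries. The log2 ratio of a gene sets its shGpx4 level against its shNC level after 1 FPKM was added to each, which shrinks the ratio where the level is low. None of the 38 measured members was at least 1.5-fold higher in shGpx4, where 2.99% of all 10997 measured genes were. Only Gsta4 was at least 1.5-fold lower, where 1.96% of all measured genes were. The members ran between -0.59 and 0.40, with a median of -0.03, and the median over all measured genes was -0.04. The median size of the ratio regardless of direction was 0.15 for the members and 0.13 for all measured genes. At a smaller size, 0.32 in log2, Gss, Ggct and Mgst2 were higher and Gsta4, Gstm1, Cdo1, Chac1 and Gstt1 were lower, that is 7.89% and 13.2% of the measured members, beside 6.97% and 8.7% of all measured genes.

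Counting error was read from whole reads recovered from the FPKM values, as an exact 95% Clopper-Pearson interval of the FPKM ratio without a pseudocount, in log2. It says nothing of how cultures vary, only of counting error, and reads of an amplified library are not independent molecules. The interval lay above 0 for 6 measured members and below 0 for 10, or 15.8% and 26.3%, beside 18.1% and 27.3% of all measured genes with an interval. Both shares lie near that background, which pools all levels. At a mean of at least 20 FPKM, 11.8% of members lay above 0 and 52.9% below, beside 23.7% and 38.0% of all genes there. From 5 to 20 FPKM the shares were 27.3% and 0%, beside 15.5% and 24.3%. From 1 to 5 FPKM they were 10% and 10%, beside 16.2% and 20.8%. The part that level has in this was not tested. In all, 22 measured members had an interval that held 0. The recovered reads are the smallest that fit. True reads that are a multiple of them would narrow an interval and could take it off 0. Intervals were not rescaled. Those with an end between 0 and the all-gene median of -0.04 would be called otherwise after centring.

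Without rescaling, most measured transferases had ratios below 0, and most of the other measured members had ratios above 0. Of 17 measured transferases 12 had ratios below 0, or 70.6%. Their median was -0.06, beside -0.04 for all measured genes. Among those 12, Gstp1, Gstz1 and Mgst3 took the other sign after centring on the median of all genes. The signs of the transferases were then nearly even. Of the 21 other measured members 13 had ratios above 0 and 8 below, or 38.1% below, with a median of 0.05, and of these 8 Chac2 took the other sign after centring. Over all measured genes 41.3% had ratios above 0 and 58.7% below. Among the members, level ran alongside this. Of the 17 members whose mean reached 20 FPKM, 12 had ratios below 0, and of the 21 with a mean under 20, 8 did. Over all genes the share below 0 hardly differed by level. It was 59.8% at 20 FPKM or more, 59.0% from 5 to 20 FPKM and 57.1% from 1 to 5 FPKM. These counts were described after the values were seen, and the part that level has in them was not tested.

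**Figure D1:**
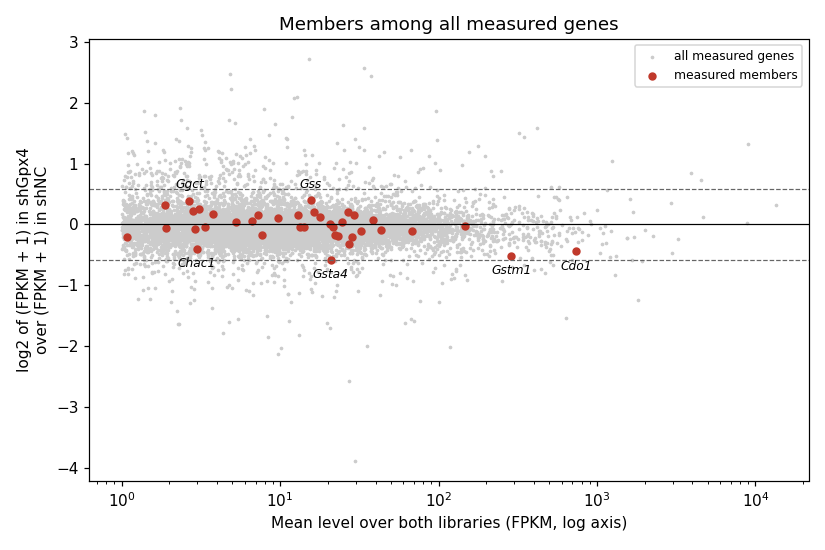
Log2 ratio of each gene, shGpx4 over shNC with 1 FPKM added to each, against its mean level in FPKM on a log axis, for the 10997 measured genes (grey) and the 38 measured members (red). Dashed lines mark 1.5-fold, and Gsta4 alone among the members lies past one of them, while Gstm1 and Cdo1 are the lowest of the most abundant members.

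Cystine uptake needs a pair of proteins, the exchanger Slc7a11 and its chaperone heavy chain Slc3a2. Slc7a11 was at 0.466 FPKM in shGpx4 and 0.238 FPKM in shNC, from at least 95 and 45 reads. It was below 1 FPKM in both and is not among the measured members, but its level was higher in shGpx4 by more than counting error, with a log2 FPKM ratio of 0.97 and an interval of 0.44 to 1.51. With a pseudocount of 1 its log2 ratio was 0.24. Slc3a2, which also serves other amino acid exchangers, was at 31.1 FPKM in shGpx4 and 33.8 FPKM in shNC, a log2 ratio of -0.12 with an interval of -0.18 to -0.06. Per length, the heavy chain transcript exceeded that of the exchanger 66.7-fold in shGpx4 and 142-fold in shNC.

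Glutathione synthesis and reduction differed little apart from its last synthetic enzyme. Gclc, the catalytic subunit of glutamate-cysteine ligase, was at 20.6 FPKM in shGpx4 and 20.5 FPKM in shNC, a log2 ratio of 0.01. Its modifier subunit Gclm was at 18.7 FPKM in shGpx4 and 17.1 FPKM in shNC, a log2 ratio of 0.13 with an interval of -0.07 to 0.34. The catalytic transcript thus exceeded that of the modifier 1.10-fold in shGpx4 and 1.20-fold in shNC. Gss, glutathione synthetase, was at 17.9 FPKM in shGpx4 and 13.3 FPKM in shNC. Its log2 ratio was 0.40, with an interval of 0.20 to 0.66, on no fewer than 385 and 265 reads, and 4.93% of all measured genes had a higher one. Gss lies on chromosome 2 from 155563181 to 155592810 (GRCm38.p6). Of the 50-base stretches of its transcripts, 10.3% are also antisense to transcripts of other genes. Acss2 had the largest part, at 4.15%, followed by Gssos2 and Gssos1. Gsr, which reduces oxidised glutathione, was at 6.78 FPKM in shGpx4 and 6.49 FPKM in shNC, a difference within counting error. All 4 genes had ratios above 0, as did 41.3% of all measured genes, but only the interval of Gss lay above 0.

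Genes of glutathione breakdown went both ways. Chac1, a cytosolic enzyme that cleaves glutathione and is induced through ATF4 in stressed cells, was at 2.42 FPKM in shGpx4 and 3.52 FPKM in shNC. It was lower in shGpx4, with a log2 ratio of -0.40 and an interval of -0.97 to -0.11, on no fewer than 81 and 109 reads. Its relative Chac2, a slower enzyme of the same reaction, was at 3.32 FPKM in shGpx4 and 3.43 FPKM in shNC, within counting error. Per length the Chac1 transcript was 0.730 times that of Chac2 in shGpx4 and 1.03 times in shNC.

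Ggct, the gamma-glutamylcyclotransferase that acts on gamma-glutamyl amino acids, was at 3.16 FPKM in shGpx4 and 2.19 FPKM in shNC. Its log2 ratio was 0.38, but the smallest reads that give these values are 14 and 9, and the interval of -0.78 to 1.92 held 0. The true reads may be a multiple of these, which would narrow it. Ggt5 and Ggt7 belong to the family of cell-surface gamma-glutamyl transferases. Ggt5, which acts on the glutathione conjugate leukotriene C4, was at 3.10 FPKM in shGpx4 and 2.51 FPKM in shNC, with an interval of 0.04 to 0.57. Ggt7 was at 17.6 FPKM in shGpx4 and 15.1 FPKM in shNC, with an interval of 0.08 to 0.35. Both were slightly higher in shGpx4, by log2 ratios of 0.22 and 0.21.

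Slc7a11 and Chac1 are known targets of ATF4, the transcription factor of the amino acid response, and they differed in opposite directions, so their promoters are shown. The element searched for was TGATGNAA, a composite site of ATF4 with a C/EBP partner, on either strand of windows from 250 bases before to 50 bases after each RefSeq start site. Of the 36 members with such a window in the RefSeq table of GRCm38.p6, only these 2 held it, or 5.56%, beside 4.51% of all 27025 genes. The 250 bases before the start site are printed from 5′ to 3′ on the strand of the gene, with matches in capitals. For Slc7a11 they are chr3:50443614-50443863 on the minus strand, and for Chac1 chr2:119350992-119351241 on the plus strand. The Slc7a11 start site of that table lies inside the annotated gene, which runs from 50364936 to 50499087.
Slc7a11: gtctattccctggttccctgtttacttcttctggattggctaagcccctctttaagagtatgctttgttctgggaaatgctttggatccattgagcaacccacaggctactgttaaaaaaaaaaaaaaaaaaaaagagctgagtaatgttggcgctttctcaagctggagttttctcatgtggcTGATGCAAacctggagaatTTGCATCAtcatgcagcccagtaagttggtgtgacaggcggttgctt
Chac1: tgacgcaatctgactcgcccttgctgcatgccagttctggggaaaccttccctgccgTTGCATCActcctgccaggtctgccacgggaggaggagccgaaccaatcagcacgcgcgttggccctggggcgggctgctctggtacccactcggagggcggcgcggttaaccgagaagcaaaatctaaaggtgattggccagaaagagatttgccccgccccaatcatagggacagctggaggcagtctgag

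The Slc7a11 window held 2 matches in opposite orientation, one from -66 to -59 and one from -47 to -40, counted from the base before the start site as -1. The Chac1 window held 1 match, on the opposite strand, from -193 to -186. A match is a description of the letters in the window and not a measured binding site.

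**Figure D2:**
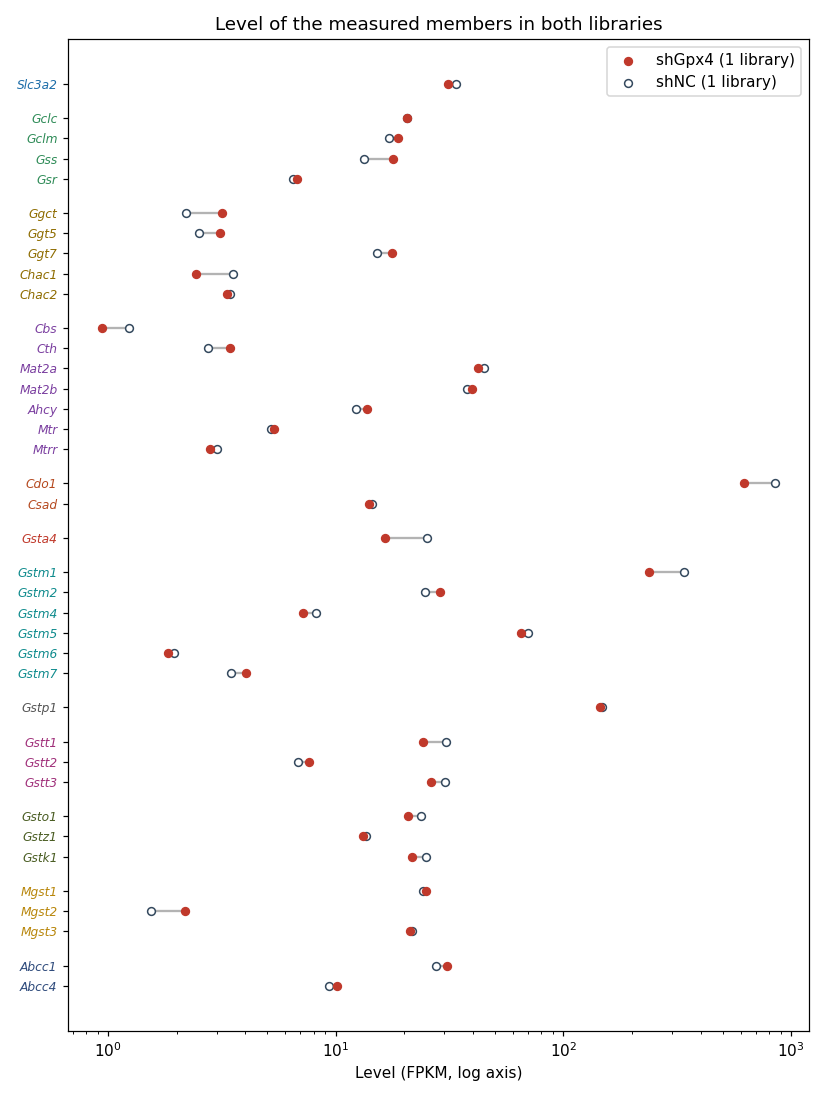
Level in FPKM (log axis) of the 38 measured members in shGpx4 (filled) and shNC (open), 1 library each, ordered by role from cystine uptake at the top to conjugate exporters at the bottom. Levels span from about 1 FPKM for Cbs to 623 FPKM in shGpx4 and 848 FPKM in shNC for Cdo1, and most pairs of points lie close together.

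The methionine cycle hands homocysteine to transsulfuration, the route by which cells can make cysteine without importing cystine. Mat2a, the catalytic subunit of methionine adenosyltransferase, was at 42.1 FPKM in shGpx4 and 45.0 FPKM in shNC, a log2 ratio of -0.09. Its regulatory partner Mat2b was at 39.6 FPKM in shGpx4 and 37.7 FPKM in shNC, a log2 ratio of 0.07. The hydrolase Ahcy, which releases homocysteine, was at 13.7 FPKM in shGpx4 and 12.2 FPKM in shNC, with a log2 ratio of 0.16 and an interval of 0.01 to 0.33. Its value is uncertain, because 68.7% of the 50-base stretches of its GENCODE transcripts also occur in transcripts of other genes, mostly pseudogenes.

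Methionine synthase, Mtr, was at 5.34 FPKM in shGpx4 and 5.19 FPKM in shNC, and its reductase Mtrr at 2.80 FPKM in shGpx4 and 3.02 FPKM in shNC. Both differences were within counting error. Cbs, cystathionine beta-synthase, which starts transsulfuration, was near the limit of the measured genes, at 0.939 FPKM in shGpx4 and 1.24 FPKM in shNC. Cth, cystathionine gamma-lyase, which completes it and releases cysteine, was at 3.44 FPKM in shGpx4 and 2.74 FPKM in shNC. The intervals of both held 0, at -0.94 to 0.14 for Cbs and -0.06 to 0.72 for Cth. Per length, Cth exceeded Cbs 3.66-fold in shGpx4 and 2.22-fold in shNC. None of these 7 genes reached a log2 ratio of 0.32 in either direction, and neither did 9274 of all 10997 measured genes.

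Cysteine can instead be oxidised towards taurine, and the first enzyme of that route was by far the most abundant member. Cdo1, cysteine dioxygenase, was at 623 FPKM in shGpx4 and 848 FPKM in shNC. It was at the 99.5th percentile of all measured genes in shGpx4 and the 99.7th in shNC. The level in shGpx4 was lower, with a log2 ratio of -0.45 and a narrow interval of -0.47 to -0.42, on no fewer than 20305 and 25599 reads. The next enzyme, Csad, was at 14.0 FPKM in shGpx4 and 14.5 FPKM in shNC, within counting error. The Cdo1 transcript exceeded that of Csad 44.4-fold in shGpx4 and 58.6-fold in shNC. The taurine transporter gene Slc6a6 was lower as well, at 80.5 FPKM in shGpx4 and 111 FPKM in shNC, a log2 ratio of -0.45.

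Glutathione transferases were summed by class, since several members act on overlapping substrates. The 22 transferase genes together were at 667 FPKM in shGpx4 and 798 FPKM in shNC, so the shGpx4 library held 83.7% of the shNC sum. Gstm1 alone made up 35.5% of the sum in shGpx4 and 42.4% in shNC. The other 21 genes summed to 431 FPKM in shGpx4 and 459.5 FPKM in shNC, or 93.7% of the shNC sum. Of the difference of -130 FPKM in the sum, -101 FPKM was that of Gstm1.

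**Figure D3:**
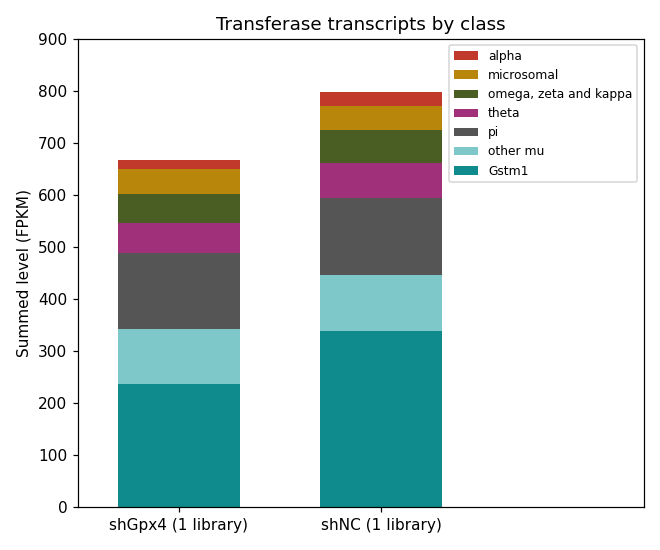
Summed level in FPKM of the 22 transferase genes by class in shGpx4 and shNC, 1 library each, with Gstm1 separate from the other 6 mu genes. The bars reach 667 FPKM in shGpx4 and 798 FPKM in shNC, and the Gstm1 segment differs most.

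The alpha class was carried by 1 gene. Gsta4, whose enzyme is specialised in conjugating 4-hydroxynonenal, an aldehyde from peroxidised lipids, was at 16.4 FPKM in shGpx4 and 25.2 FPKM in shNC. It had the lowest ratio of all measured members, -0.59, with an interval of -0.82 to -0.41, on no fewer than 335 and 476 reads, and 1.91% of all measured genes had a lower one. It lay just past the 1.5-fold limit of 0.58, and centring on the median of all measured genes, scaling by the 75th percentile or scaling by a trimmed mean brought it inside, at -0.55, -0.56 and -0.55. In the RefSeq annotation of GRCm38.p6 it lies on chromosome 9 from 78191966 to 78209349, separated by 21319 bases from Gsta1. No 50-base stretch of its transcripts was found in another gene.

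The other alpha genes were at the edge of detection. Gsta1 and Gsta2 were listed at 0 in shGpx4, where 3 reads would give at most 0.490 and 0.139 FPKM, and at 0.177 and 0.1998 FPKM in shNC. Gsta3 was at 0.087 FPKM in shGpx4 and 0.126 FPKM in shNC. Of the 50-base stretches of Gsta1 and Gsta2, 90.5% and 49.8% occur in other genes, so reads could not be assigned to them with certainty. No fold is given for Gsta1 and Gsta2.

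The 7 mu genes stand side by side on chromosome 3 from 107895854 to 108045179. Gstm1, a widely expressed detoxifying transferase, was at 237 FPKM in shGpx4 and 338 FPKM in shNC. Its gene runs from 108012250 to 108017973. It was the most abundant transferase of both libraries and was lower in shGpx4, with a log2 ratio of -0.51 and an interval of -0.56 to -0.47, on no fewer than 6921 and 9150 reads. A share of 18.9% of its 50-base stretches occurs in other genes, chiefly a pseudogene and Gstm3. Gstm2, separated from it by 25829 bases, differed the other way, at 28.8 FPKM in shGpx4 and 24.7 FPKM in shNC, with a log2 ratio of 0.21 and an interval of 0.05 to 0.39. The Gstm1 transcript exceeded that of Gstm2 8.23-fold in shGpx4 and 13.7-fold in shNC.

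The remaining mu genes were close together in the 2 libraries, and their intervals held 0. Gstm5 was at 65.0 FPKM in shGpx4 and 70.1 FPKM in shNC. Gstm4 was at 7.21 FPKM in shGpx4 and 8.22 FPKM in shNC. Gstm7 was at 4.03 FPKM in shGpx4 and 3.47 FPKM in shNC, and Gstm6 at 1.84 FPKM in shGpx4 and 1.95 FPKM in shNC. Gstm3 was under the filter, at 0.078 FPKM in shGpx4 and 0.084 FPKM in shNC. Without Gstm1 the class summed to 107 FPKM in shGpx4 and 109 FPKM in shNC. Gstm1 was thus the mu gene with a log2 ratio beyond 0.32 in size, and no other measured mu gene passed it.

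The pi class consists of near-identical neighbours. Gstp1, which also binds and restrains stress kinases, was the second most abundant transferase transcript, at 145 FPKM in shGpx4 and 147 FPKM in shNC. Its log2 ratio of -0.03 was within counting error. Gstp2, separated from it by 2375 bases on chromosome 19, was at 0.499 FPKM in shGpx4 and 0.539 FPKM in shNC, values that as few as 1 read in each library would give. Gstp1 exceeded it 290.1-fold in shGpx4 and 273-fold in shNC. The genes share 33.7% of the 50-base stretches of Gstp1 and 49.1% of those of Gstp2, so the split of reads between them is uncertain.

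The promoters of this pair are shown because they are alike while the listed levels are far apart. Capitals mark TGANTCA, the AP-1 element, which in both is part of a longer match to TGANNNNGC, the core of the antioxidant response element. Printed are the 250 bases before the start site from RefSeq, GRCm38.p6, 5′ to 3′ on the strand of the gene, for Gstp1 at chr19:4037913-4038162 and for Gstp2 at chr19:4042222-4042471, both on the minus strand.
Gstp1: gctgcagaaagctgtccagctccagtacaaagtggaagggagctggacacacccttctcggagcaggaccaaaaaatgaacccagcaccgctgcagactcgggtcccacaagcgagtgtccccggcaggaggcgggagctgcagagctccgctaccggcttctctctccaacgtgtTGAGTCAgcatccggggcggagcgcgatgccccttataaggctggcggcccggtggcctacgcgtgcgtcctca
Gstp2: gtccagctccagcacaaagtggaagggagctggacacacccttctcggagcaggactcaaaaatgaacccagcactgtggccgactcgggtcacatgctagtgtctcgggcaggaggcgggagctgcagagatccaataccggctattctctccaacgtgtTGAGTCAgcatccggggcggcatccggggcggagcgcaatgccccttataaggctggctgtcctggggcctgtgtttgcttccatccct

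The element runs from -74 to -68 in Gstp1 and from -89 to -83 in Gstp2. With 20 bases on either side, 40 of 47 bases around it are identical without gaps. TGANTCA was found in the windows of 5 of the 36 members with a window, or 13.9%, namely Ahcy, Gstm5, Gstp1, Gstp2 and Mgst2, beside 8.97% of all genes. TGANNNNGC was found for 19 of the 36, or 52.8%, beside 45.0% of all genes, and both strands were searched.

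Theta genes lie together on chromosome 10 from 75774117 to 75837419. Gstt1, which acts on small halogenated compounds, was at 24.2 FPKM in shGpx4 and 30.6 FPKM in shNC, a log2 ratio of -0.33 with an interval of -0.47 to -0.21. Gstt3 was at 26.2 FPKM in shGpx4 and 30.3 FPKM in shNC, a log2 ratio of -0.20 with an interval of -0.33 to -0.09, and 12.5% of its 50-base stretches occur in other genes. Both neighbours were lower in shGpx4 by more than counting error. Gstt2 was at 7.64 FPKM in shGpx4 and 6.81 FPKM in shNC, and its interval held 0.

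The single members of the omega, kappa and zeta classes differed on the same small scale. Gsto1, an omega transferase that reduces protein-glutathione disulfides, was at 20.8 FPKM in shGpx4 and 23.6 FPKM in shNC, a log2 ratio of -0.17. The kappa enzyme Gstk1, found in mitochondria and peroxisomes, was at 21.7 FPKM in shGpx4 and 25.02 FPKM in shNC, a log2 ratio of -0.20. For both, the interval lay just below 0, with upper ends of -0.01, nearer 0 than the all-gene median of -0.04. Gstz1, a zeta transferase of tyrosine breakdown, was at 13.2 FPKM in shGpx4 and 13.6 FPKM in shNC, within counting error.

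Microsomal transferases are membrane proteins of another family, and some of them also have peroxidase activity towards lipid hydroperoxides. Mgst1 was at 24.96 FPKM in shGpx4 and 24.2 FPKM in shNC, and Mgst3 at 21.1 FPKM in shGpx4 and 21.7 FPKM in shNC. These 2 differed by less than counting error, and their log2 ratios were 0.04 and -0.04. Mgst2 was at 2.19 FPKM in shGpx4 and 1.55 FPKM in shNC, with a log2 ratio of 0.32 and an interval of -0.02 to 1.03 that held 0.

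The 2 exporters among the members differed little. Abcc1, which carries glutathione conjugates and oxidised glutathione out of the cell, was at 30.7 FPKM in shGpx4 and 27.6 FPKM in shNC, a log2 ratio of 0.15 with an interval of 0.09 to 0.22. Abcc4 was at 10.1 FPKM in shGpx4 and 9.31 FPKM in shNC, a log2 ratio of 0.11 with an interval that held 0. The related gene Abcc5, listed with the further carriers, was at 6.71 FPKM in shGpx4 and 7.38 FPKM in shNC, with an interval of -0.23 to -0.04. Abcc3 of that list, under the filter, was higher, at 1.17 FPKM in shGpx4 and 0.532 FPKM in shNC. Its log2 FPKM ratio was 1.14 with an interval of 0.66 to 1.63, on no fewer than 126 and 53 reads. With a pseudocount of 1 it was 0.50.

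**Figure D4:**
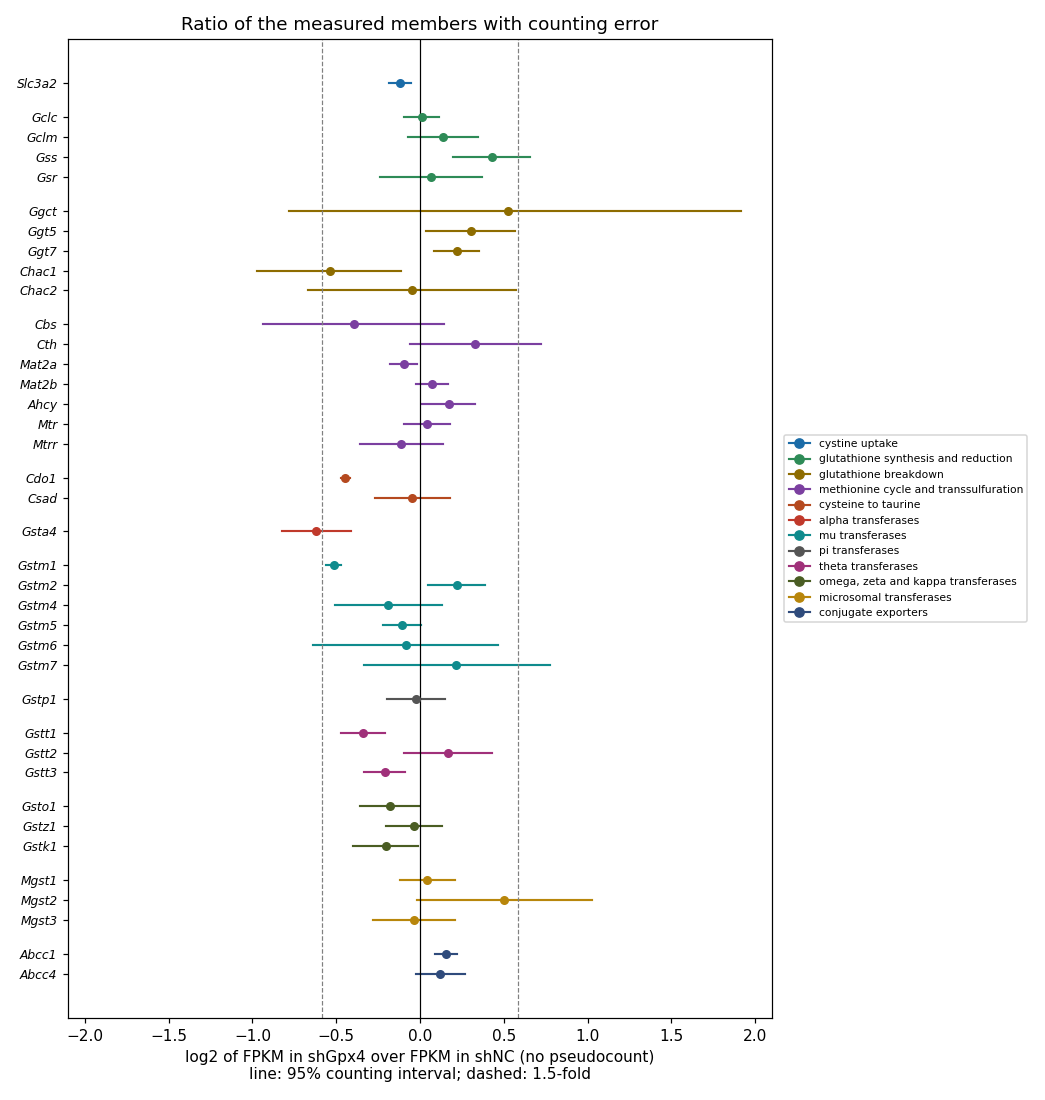
Log2 ratio of FPKM, shGpx4 over shNC with no pseudocount, for the 38 measured members, with lines for the exact 95% counting interval and dashed lines at 1.5-fold. Colours give the role, and the intervals of Gstm1 and Cdo1 are narrow and lie wholly below 0, while that of Ggct, from the smallest reads of 14 and 9, is the widest.

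The genes around this pathway were listed separately. Of 66 further genes of glutathione use, sulfur amino acid metabolism, carriers and NADPH supply, 65 had a row and 46 were measured. Of these, 2 were at least 1.5-fold higher in shGpx4 and none was at least 1.5-fold lower, beside 2.99% and 1.96% of all measured genes. Of the 46, 17 had an interval above 0, or 37.0%, and 12 had one below 0, or 26.1%, beside 18.1% and 27.3% of all measured genes. Aldh1l1, the folate dehydrogenase that yields NADPH, was at 5.41 FPKM in shGpx4 and 2.78 FPKM in shNC, a log2 ratio of 0.76. Got1, the cytosolic aspartate aminotransferase, was at 13.8 FPKM in shGpx4 and 8.57 FPKM in shNC, a log2 ratio of 0.63. Both exceeded counting error.

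NADPH is the reductant of glutathione reductase, and 6 of the 7 genes of its supply had ratios and intervals above 0, where 41.3% of all measured genes had ratios and 18.1% intervals above 0. Idh1, the cytosolic isocitrate dehydrogenase, was at 80.7 FPKM in shGpx4 and 55.0 FPKM in shNC, a log2 ratio of 0.54. G6pdx, which opens the pentose phosphate pathway, was at 55.7 FPKM in shGpx4 and 44.1 FPKM in shNC, a log2 ratio of 0.33. The exception was Mthfd1, at 15.8 FPKM in shGpx4 and 18.1 FPKM in shNC, with an interval that held 0. The median of these 7 was 0.19, beside -0.04 for all measured genes. Most of the 7 had a mean of at least 20 FPKM, where 23.7% of all genes had an interval above 0. Like the other lists, this one was chosen with earlier results of these data known, so its shares are a description only.

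Of the enzymes that use glutathione, 8 of 11 had ratios below 0, or 72.7%, beside 58.7% of all measured genes, and their median was -0.10. The smallest of these ratios was that of the glutaredoxin Glrx2 at -0.01, nearer 0 than the all-gene median of -0.04. Gpx1, the cytosolic glutathione peroxidase, was the lowest, at 118 FPKM in shGpx4 and 157 FPKM in shNC, a log2 ratio of -0.41. Esd, which hydrolyses S-formylglutathione, was the highest, at 74.5 FPKM in shGpx4 and 62.9 FPKM in shNC, a log2 ratio of 0.24. Among 9 measured carriers the range ran from Slc6a6, given above, to Slc1a1, a transporter of glutamate and cysteine, at 2.97 FPKM in shGpx4 and 2.11 FPKM in shNC, a log2 ratio of 0.36.

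Sulfur metabolism ranged from Ethe1, the mitochondrial persulfide dioxygenase, to Got1. Ethe1 was at 6.79 FPKM in shGpx4 and 7.53 FPKM in shNC, within counting error. In that list 9 of the 10 measured genes lay within 0.32 in log2, beside 9274 of all 10997 measured genes. Of 4 measured relatives of the transferases, Clic1, a chloride channel protein with a transferase fold, was the highest, at 188 FPKM in shGpx4 and 145 FPKM in shNC, a log2 ratio of 0.37. Gstcd was the lowest of them, at 2.73 FPKM in shGpx4 and 3.52 FPKM in shNC, a log2 ratio of -0.28. Among 5 measured genes of glutathione breakdown outside the members, the lysosomal cystine exporter Ctns was the lowest, at 8.15 FPKM in shGpx4 and 9.44 FPKM in shNC, and the aminopeptidase Anpep the highest, at 71.7 FPKM in shGpx4 and 65.5 FPKM in shNC. All 5 lay within 0.32 in log2, as most measured genes did.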

How the data were processed

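The authors deposited 1 table of FPKM per library. The tools named are Cufflinks, HISAT2 and Trimmomatic, and the build is GRCm38, per the submitters' processing notes. Their versions and settings were not given. The unit was read from the values and from Cufflinks in those notes. Per the labels' protocols a stranded mRNA kit was used, but the strand setting of counting is not stated, so overlapping and near-identical genes may share reads.

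Library totals were recovered from the steps that FPKM ratios of weakly expressed genes take. With them, 15151 of 15153 genes above 0 gave whole reads over a whole length (relative tolerance 1e-08). The reads are the smallest that fit, so the true reads may be a multiple of them. Summed over genes they make up 89.9% of the shGpx4 total and 89.8% of the shNC total. Ratios used a pseudocount of 1 and no rescaling, and genes with a mean of at least 1 FPKM counted as measured. No test or p-value is possible with a single library on each side.

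The members and lists were chosen with earlier results of these data known. All 44 members are reported. Of the further genes, those at least 1.5-fold apart and the highest and lowest of each list are named. Idh1, G6pdx, Glrx2, Abcc5, Abcc3 and Gsto2 were named after their values were seen. Promoters and locations came from RefSeq, GRCm38.p6, and shared stretches of 50 bases, on either strand, from GENCODE transcripts. Without a protein table, the planned protein identities were not computed. The alternatives tried were other pseudocounts, filters, fold limits and rescalings, and recovered reads. The scripts were tested on simulated data. Software was matplotlib 3.10.9, pandas 2.3.3, scipy 1.17.1 and numpy 2.4.6 under Python 3.11.15.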

Additional observations from a re-analysis of the deposited data

How the results depend on the processing

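No rescaling moved the median of all measured genes by more than 0.04 in log2. The count of members at least 1.5-fold higher was 0 under every alternative at that fold, and 3 at a limit of 0.32 in log2. Alternatives were not combined, and smaller pseudocounts were counted only for measured members. Slc7a11, left out by the filter, was past the limit at 0.74 with a pseudocount of 0.1 and 0.96 from recovered reads. With that pseudocount Gsta1 and Gsta2, also left out and at 0 in shGpx4, were past it the other way. The count lower was 1 (Gsta4), and 0 after centring, rescaling by the 75th percentile or rescaling by a trimmed mean of log ratios, since Gsta4 lies just past the limit. It was 5 at the limit of 0.32 in log2 and 0 at 2-fold. The members' median stayed between -0.04 and 0.01. All 228 values of the measured members under the 6 alternatives lay within their counting interval or within 0.1 of the main value. This could hardly come out otherwise, since the shifts of the median by rescaling were smaller than 0.1, so it says little about stability. Of the 228 values, 8 took the other sign, in Chac2, Gstp1, Gstz1 and Mgst3, all with main ratios between -0.04 and -0.03. The transferase sum in shGpx4 was between 83.6% and 86.2% of that in shNC. Of the further genes, 1 was at least 1.5-fold higher with a minimum mean of 5 FPKM, and 3 were after rescaling by a trimmed mean, against 2 otherwise. Gss had a higher ratio than Ggct with a pseudocount of 1 and no rescaling, but with a pseudocount of 0.1 Ggct was at 0.51 and Gss at 0.42.

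Leaving out members that share at least 20% of their 50-base stretches with other genes, and the alternatives for the transferase sum and the further genes, were chosen after seeing the data. The alternative without near-identical proteins was not run. No paired analysis was possible because each group has 1 library. Depth limits the members under 1 FPKM: Gsta1, Gsta2, Gsta3, Gstm3 and Gstp2 are fitted by as few as 0 to 4 reads a library, or by multiples of these.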
